A study of Rattus norvegicus with 12 samples.

Results

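The colon takes up sodium, chloride and water and returns some chloride to the lumen, and a list of 10 rat genes for this transport was followed here. It held the sodium channel subunits Scnn1a, Scnn1b and Scnn1g, the sodium/hydrogen exchangers Slc9a3 and Slc9a5, and the chloride/bicarbonate exchanger Slc26a3. It also held the carbonic anhydrases Car1 and Car4, the water channel Aqp8 and the chloride channel Cftr. The 10 genes were found on the arrays by gene name, which gave 12 probes of 30367. Cftr and Slc9a3 had 2 probes each, and each gene was counted by its probe with the highest mean signal. All rats were male Wistar rats that underwent colorectal distension (CRD), and colon was taken on postnatal day 60. Group C held 4 rats (C1 to C4) that were raised without neonatal maternal separation (NMS) and received placebo by gavage. Group M held 4 rats (M5 to M8) that were kept apart from the dam for 180 min a day from day 2 to day 14 and received placebo. Group D held 4 rats (D9 to D12) that underwent the same NMS and received VSL#3, a mixture of live probiotic bacteria, from day 3 to day 60. NMS is a model of irritable bowel syndrome in which the adult rat is more sensitive to distension of the colon. The samples were pieces of colon, and which layers of the wall they held is not stated. A lower level can mean fewer cells of a type or less RNA per cell, and these cannot be told apart.

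In the surface cells of the distal colon, sodium enters from the lumen through the epithelial sodium channel (ENaC), which is built of alpha (Scnn1a), beta (Scnn1b) and gamma (Scnn1g) subunits and is under the control of aldosterone. Sodium also enters in exchange for protons through apical exchangers, of which Slc9a3 (NHE3) is the best known, and chloride enters in exchange for bicarbonate through Slc26a3 (DRA). The carbonic anhydrases supply protons and bicarbonate for both exchangers, and Cftr lets chloride leave the cell towards the lumen. Loss of Slc26a3 or of Slc9a3 causes diarrhoea with loss of salt.

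One array was hybridized per rat, in a single colour. Levels are given as log2 of the processed signal relative to the 75th percentile of the array, so that a difference of 1 is a doubling; levels of different probes are not compared. The 75th percentile was between 1434 and 1950 signal units over the 12 arrays, between 71.0% and 73.5% of probes were well above background, and no gene spot was saturated. The study analysed 11 arrays. Rat D12 was left out of the tests here for that reason. Values with all 12 arrays are given for each of the 10 genes in Group D against Group M. In the other comparisons they are given for some genes only. All 10 counted probes were well above background on 12 arrays, except that of Slc9a3, which was so on 11 and was not in rat D12. Groups C and M lay in separate rows of one slide and Group D on another slide, so that the row of the array and NMS cannot be told apart in Group M against Group C, nor the slide and VSL#3 in either comparison of Group D.

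The probes are 60-mers, and the array annotation places them on the rn4 build of the rat genome. The 4 probes below are shown whole as examples of the sequences on the array for an exchanger of each kind, the water channel and an ENaC subunit. They are written 5′ to 3′ as designed. For Slc9a3 the sequence is that of its second probe, on which the levels below do not rest, while for the others it is that of the counted probe.
Slc26a3, chr6:49343402-49343461, plus strand: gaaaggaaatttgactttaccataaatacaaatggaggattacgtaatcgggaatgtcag
Slc9a3, second probe, chr1:29934709-29934768, minus strand: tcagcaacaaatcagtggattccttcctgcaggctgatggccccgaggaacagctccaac
Aqp8, chr1:182335905-182335964, plus strand: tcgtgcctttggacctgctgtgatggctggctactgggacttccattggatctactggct
Scnn1b, chr1:180747314-180747373, plus strand: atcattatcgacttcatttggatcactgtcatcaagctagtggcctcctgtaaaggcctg
Of the Slc9a5 probe, at chr19:35184591-35184650 on the plus strand, the first 30 bases are given, since this gene alone passed the adjusted test below.
Slc9a5: tggcagcattctcccagtccaggtcctact
The counted probe of Slc9a3 is annotated to 29 bases only, at chr1:29930908-29930936, and the annotation gives no place for the rest of its 60 bases. The remaining counted probes lie at chr4:161468845-161468904 (Scnn1a), chr1:180589223-180589282 (Scnn1g), chr4:44041769-44041828 (Cftr), chr2:88210305-88210364 (Car1) and chr10:73237515-73237574 (Car4). Which exon or untranslated region each probe covers is not given in the sources used here.

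Most of these genes had a lower mean in Group M than in Group C and a higher mean in Group D than in Group M, as the plot of levels by rat shows. In Group M against Group C, 9 of the 10 genes had a lower mean and Scnn1g a higher one, with a median difference of -0.69 against -0.01 over all probes. In Group D against Group M all 10 had a higher mean, with a median of 1.21 against 0.02 over all probes. In Group D against Group C all 10 again had a higher mean in the 11 arrays, with a median of 0.48 against -0.00025 over all probes. With D12 included, 5 of them (Slc9a3, Scnn1a, Scnn1b, Cftr and Car1) had a lower mean in Group D than in Group C. The comparisons share groups, so their directions are not independent of one another.

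**Figure D1:**
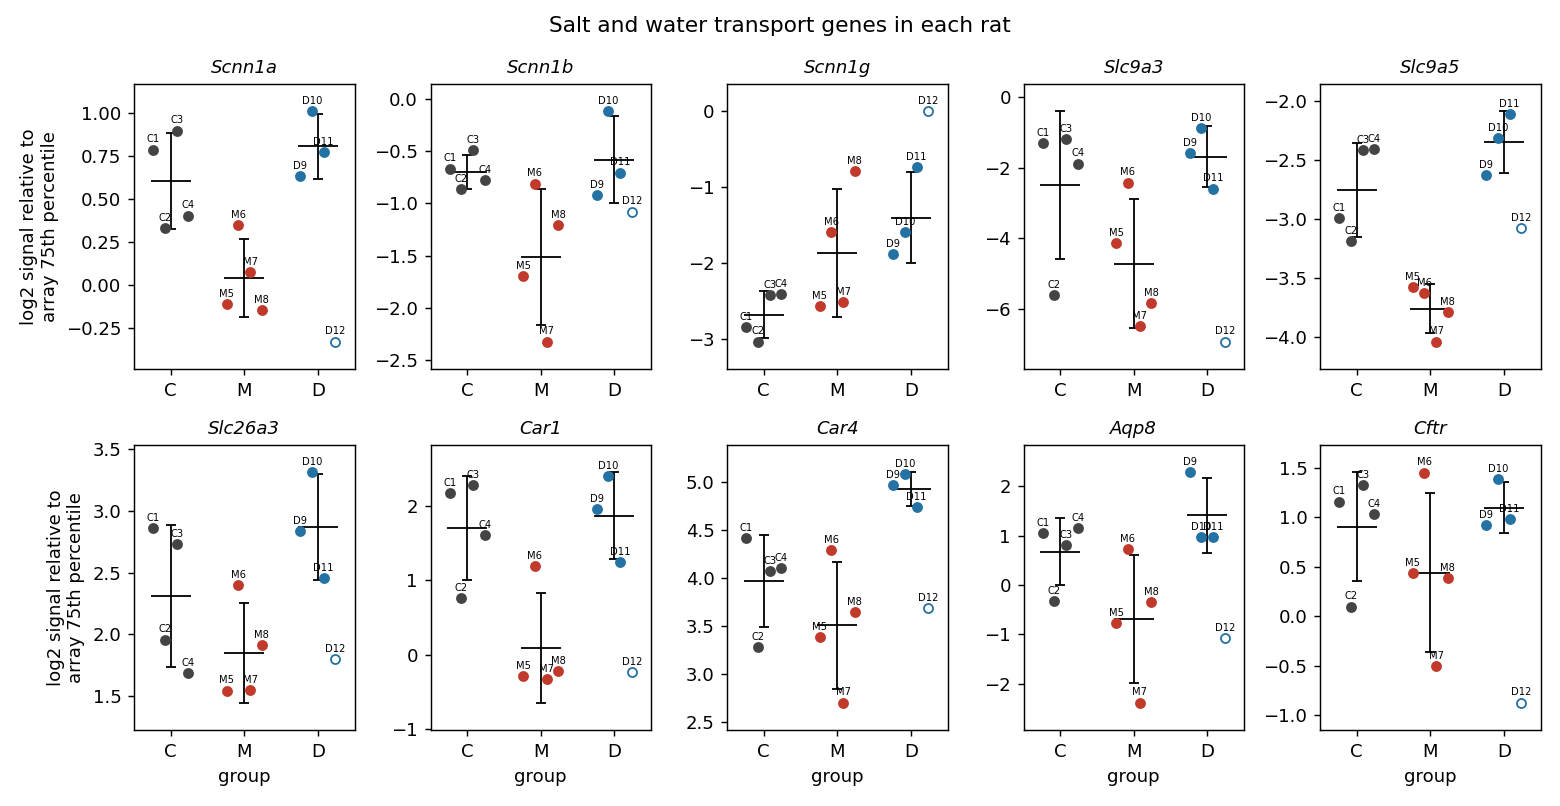
Log2 signal of the counted probe of each gene relative to the 75th percentile of the array, for each rat of Groups C, M and D; bars are mean ± SD of 4, 4 and 3 rats, and the open point is rat D12, which is not in them. Group M lies low and D9 to D11 high in most panels, with C2 low in Group C, M6 high in Group M and D12 near Group M.

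At an adjusted p of at most 0.05 over all probes, 0 of the 10 genes differed between Groups M and C, where 0.208% of all probes did. Between Groups D and M, 1 of the 10 did, Slc9a5, beside 0.161% of all probes. Between Groups D and C, 0 of the 10 did, beside 0.00659% of all probes. With the threshold of 0.05 set on unadjusted p instead, 4 of the 10 genes differed between Groups M and C (Slc9a5, Scnn1a, Scnn1b and Car1), where 22.7% of all probes did. All 4 were lower in Group M, a direction taken by 12.9% of all probes, against 9.87% that were higher. Between Groups D and M, 8 of the 10 passed the same threshold, all but Scnn1g and Cftr, beside 21.6% of all probes. All 8 were higher in Group D, as were 11.8% of all probes, against 9.85% that were lower. Between Groups D and C, 2 of the 10 passed it, Scnn1g and Car4, beside 5.98% of all probes. Both were higher in Group D, as were 3.16% of all probes, against 2.83% that were lower. The groups did not overlap for 1 gene, Slc9a5, in Group M against Group C, beside 9.25% of all probes, and for 6 genes in Group D without D12 against Group M, beside 16% of all probes. Those 6 were Slc26a3, Slc9a5, Aqp8, Scnn1a, Car1 and Car4. The share of all probes without overlap between Groups D and C is not given here. A lack of overlap between these groups, named below for single genes, therefore cannot be called particular to them.

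These counts turned on single rats. With D12 included, 3 genes passed the unadjusted threshold in Group M against Group C, 4 in Group D against Group M and 1 in Group D against Group C, where 18.5%, 12.1% and 6.78% of all probes did, and 0 passed the adjusted one in any comparison. Without M6, 4 genes passed the adjusted threshold in Group M against Group C and 7 in Group D against Group M, beside 8 and 9 at the unadjusted one. The calls rose over the whole array without M6, to 16.2% and 15% of all probes at the adjusted threshold and 31.6% and 30.4% at the unadjusted one. Without D10, 5 genes passed the unadjusted threshold in Group D against Group M, beside 16.3% of all probes. In Group D against Group C, 1 gene passed the unadjusted threshold when any one of C2, D9, D10 or D11 was left out, beside 4.07% to 5.86% of all probes.

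**Figure D2:**
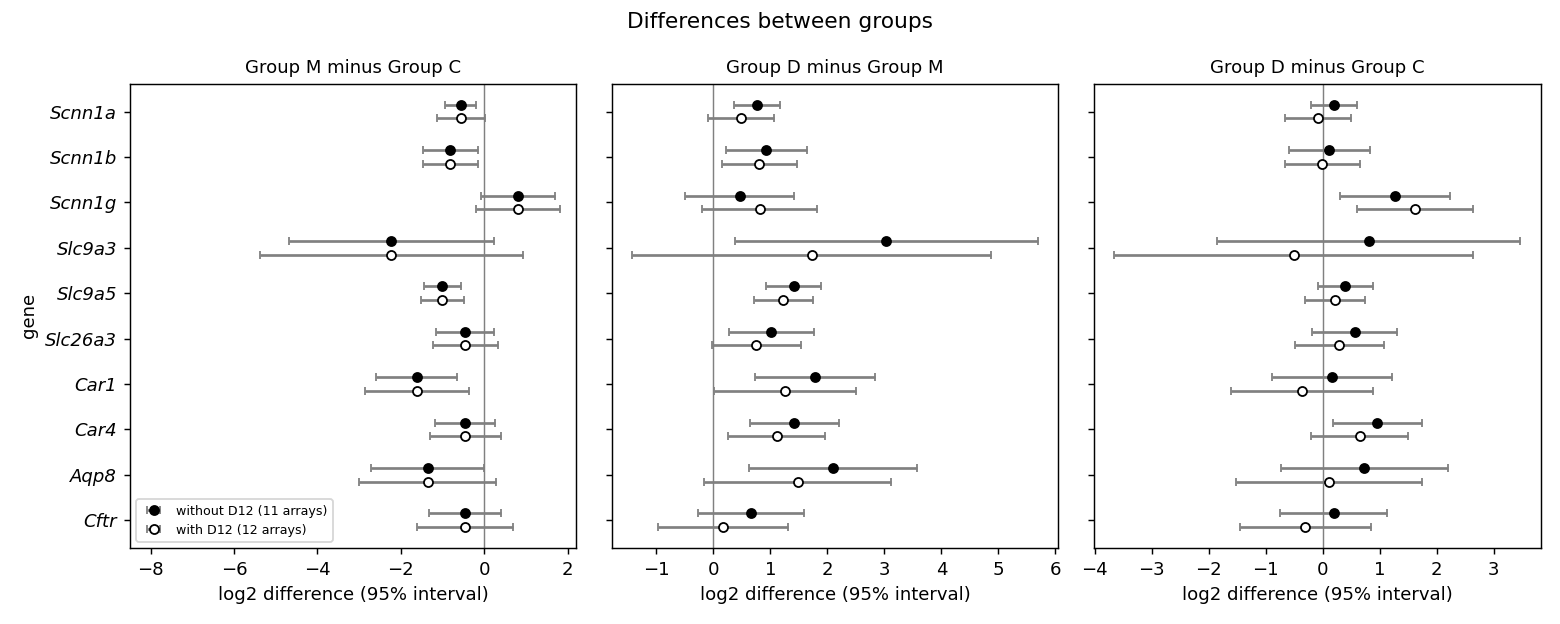
Log2 difference between group means for each gene with its 95% confidence interval from limma, from 11 arrays (filled) and from all 12 arrays (open). Most intervals of Group D minus Group M lie above 0 in the 11 arrays and move towards 0 when D12 is included.

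The alpha and beta subunits of ENaC had their lowest mean in Group M in the 11 arrays, while the gamma subunit did not. Scnn1a was 0.79, 0.33, 0.90 and 0.40 in C1 to C4, -0.11, 0.35, 0.07 and -0.15 in M5 to M8, and 0.63, 1.01, 0.77 and -0.33 in D9 to D12. M6 reached the lower end of Group C, and D12 was the lowest rat of all. The mean of Group M was 0.04 ± 0.23 (SD, n = 4), that of Group C 0.60 ± 0.28 (n = 4) and that of D9 to D11 0.81 ± 0.19 (n = 3). Group M was lower than Group C by a log2 difference of -0.56 (SE 0.17, adjusted p = 0.114). With D12 in the fit the adjusted p was 0.280, and the unadjusted threshold was not passed. Group D was higher than Group M by 0.77 (SE 0.18, adjusted p = 0.0835), and by 0.48 (adjusted p = 0.488) with D12.

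Scnn1b was -0.67, -0.86, -0.49 and -0.78 in C1 to C4, -1.70, -0.81, -2.32 and -1.21 in M5 to M8, and -0.92, -0.12, -0.71 and -1.08 in D9 to D12. The 4 rats of Group C lay close together, with a mean of -0.70 ± 0.16 (SD, n = 4), while M6 was again within them and the other rats of Group M below. Group M differed from Group C by -0.81 (SE 0.30, adjusted p = 0.153, or 0.216 with D12 in the fit). Group D was higher than Group M by 0.93 (SE 0.32, adjusted p = 0.146) in 11 arrays and by 0.80 (adjusted p = 0.334) in 12.

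Scnn1g ran otherwise. Its levels were -2.84, -3.03, -2.42 and -2.41 in C1 to C4, -2.56, -1.59, -2.51 and -0.79 in M5 to M8, and -1.88, -1.59, -0.73 and -0.01 in D9 to D12. All 4 rats of Group D lay above all 4 rats of Group C, and D12 was the highest of the 12 rats. Group M had a mean 0.81 above that of Group C (SE 0.40, 95% interval -0.08 to 1.69, adjusted p = 0.258). Group D was 1.27 above Group C (SE 0.43, adjusted p = 0.732) in 11 arrays and 1.62 above it (SE 0.46, adjusted p = 0.513) in 12. Between Groups D and M the difference was 0.46 (95% interval -0.49 to 1.42), and 0.81 (adjusted p = 0.504) with D12.

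Because the subunits join in one channel, the level of the gamma probe was also set against those of the alpha and beta probes of the same rat, a comparison taken up after the values above were seen and therefore given as a description, with no test. Only changes of these within-rat differences between groups can be read, since probes differ in brightness. The gamma minus beta difference was -2.17, -2.17, -1.92 and -1.63 in C1 to C4, -0.86, -0.78, -0.19 and 0.42 in M5 to M8, and -0.96, -1.47, -0.03 and 1.07 in D9 to D12. Every rat of Groups M and D, D12 and M6 included, lay above every rat of Group C. The share of probe pairs that split the rats in this way is not given here. Without it, the split cannot be called particular to these subunits. The mean of Group M was 1.62 above that of Group C, and that of Group D 1.15 above it without D12 and 1.63 with D12. The gamma minus alpha difference had the same direction, with a mean 1.37 higher in Group M than in Group C and 1.07 higher in Group D than in Group C, or 1.70 with D12. Groups D and M overlapped in both differences.

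**Figure D3:**
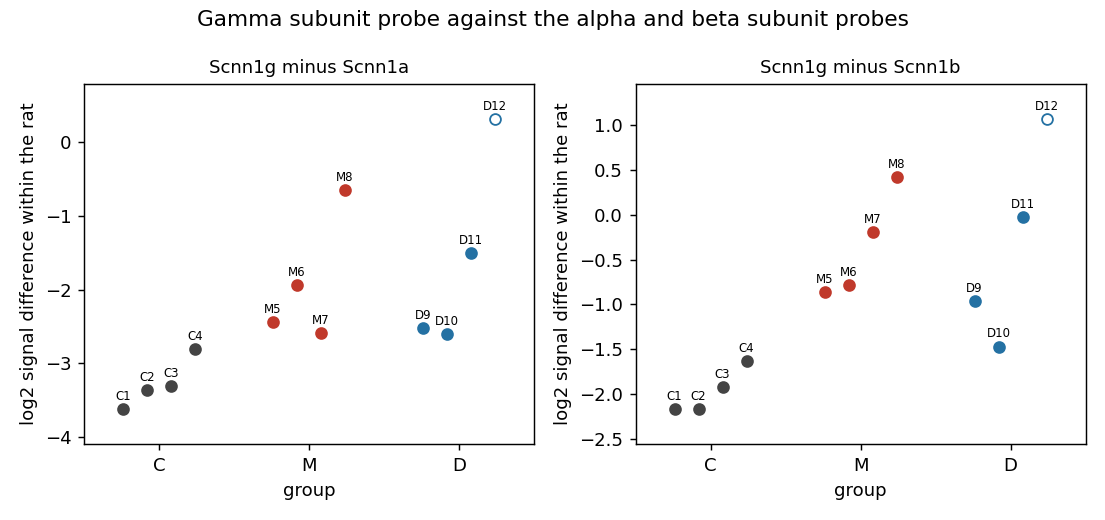
Log2 signal of the Scnn1g probe minus that of the Scnn1a probe (left) and of the Scnn1b probe (right) within each rat of Groups C, M and D; the open point is rat D12. The 4 rats of Group C lie between -3.63 and -2.81 on the left and between -2.17 and -1.63 on the right, below all rats of Groups M and D.

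Scnn1b and Scnn1g are neighbours on chromosome 1, and the 250 bases before the start of each gene are shown since their levels went apart. They are taken from RefSeq on the GRCr8 build, on the plus strand, and capitals mark the letters TTTATG, a site of the kind bound by the intestinal factor Cdx2.
Scnn1b, chr1:185861126-185861375: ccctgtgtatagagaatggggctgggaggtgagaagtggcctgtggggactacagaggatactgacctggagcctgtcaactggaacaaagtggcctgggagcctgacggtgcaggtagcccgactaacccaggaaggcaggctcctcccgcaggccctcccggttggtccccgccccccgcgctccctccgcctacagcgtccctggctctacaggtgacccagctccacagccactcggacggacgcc
Scnn1g, chr1:185735975-185736224: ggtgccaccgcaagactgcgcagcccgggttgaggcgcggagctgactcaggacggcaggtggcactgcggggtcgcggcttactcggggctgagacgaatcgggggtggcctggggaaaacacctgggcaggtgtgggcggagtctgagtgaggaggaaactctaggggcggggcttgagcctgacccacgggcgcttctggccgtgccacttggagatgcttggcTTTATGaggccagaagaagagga
Windows of 300 bases, from 250 before to 50 after the start, were listed for 8 of the 10 genes, without Scnn1a and Car1. TTTATG stood on either strand in 1 of the 8, that of Scnn1g, and in 12.7% of all 33469 windows. AGAACA, one arm of the site of the aldosterone and glucocorticoid receptors, stood in 1 of the 8, that of Slc26a3 after the start, and in 20.7% of all windows. The 2 motifs do not overlap one another, and a match of letters shows no binding.

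Slc9a5 (NHE5), a sodium/hydrogen exchanger best known from the brain, had the smallest unadjusted p of the 10 genes in both comparisons with Group M. It was -2.99, -3.19, -2.42 and -2.41 in C1 to C4, -3.57, -3.63, -4.03 and -3.78 in M5 to M8, and -2.63, -2.31, -2.11 and -3.07 in D9 to D12. The 4 rats of Group M, M6 among them, lay below the 8 other rats. Group M had a mean of -3.75 ± 0.21 (SD, n = 4), Group C of -2.75 ± 0.40 (n = 4) and D9 to D11 of -2.35 ± 0.26 (n = 3). Slc9a5 rose in Group D against Group M by a log2 difference of 1.41 (SE 0.22, 2.65-fold, adjusted p = 0.0475). With D12 the difference was 1.22 (SE 0.24) and the adjusted p 0.136, and the adjusted p was above 0.05 when any single rat but C2 or M6 was left out, between 0.0558 and 0.175. Group M was lower than Group C by -1.01 (SE 0.20, adjusted p = 0.0868, or 0.168 with D12 in the fit). Groups D and C overlapped, with a difference of 0.40 (95% interval -0.09 to 0.89).

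Slc9a3 had the widest range over the 12 rats of the 10 counted probes. It was -1.31, -5.61, -1.18 and -1.88 in C1 to C4, -4.13, -2.42, -6.49 and -5.85 in M5 to M8, and -1.59, -0.88, -2.60 and -6.94 in D9 to D12. C2 and D12 lay with the low rats of Group M, and M6 with the high rats of Groups C and D. The mean of Group M was 2.23 below that of Group C (SE 1.11, 95% interval of Group M minus Group C -4.69 to 0.24, adjusted p = 0.261). Group D was higher than Group M by 3.03 (SE 1.20, adjusted p = 0.182) without D12 and by 1.72 (adjusted p = 0.649) with it. The second probe gave 1.46 (SE 0.66, adjusted p = 0.234) for the same comparison without D12, and did not pass the unadjusted threshold. Group D minus Group C was 0.81 (95% interval -1.85 to 3.47) in 11 arrays and -0.50 in 12.

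Slc26a3, the partner of Slc9a3 in neutral salt uptake, was 2.86, 1.96, 2.73 and 1.68 in C1 to C4, 1.54, 2.40, 1.55 and 1.91 in M5 to M8, and 2.83, 3.31, 2.46 and 1.80 in D9 to D12. Groups C and M overlapped, and D9 to D11 lay above Group M by a narrow margin. Group D was 1.02 above Group M (SE 0.33, adjusted p = 0.136) without D12 and 0.75 above it (adjusted p = 0.431) with D12. The difference of Group M from Group C was -0.46 (95% interval -1.15 to 0.23).

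The carbonic anhydrases differed in pattern. Car1, a cytosolic enzyme of the colonic surface cell, was 2.17, 0.76, 2.28 and 1.61 in C1 to C4, -0.29, 1.19, -0.33 and -0.22 in M5 to M8, and 1.95, 2.40, 1.25 and -0.23 in D9 to D12. M5, M7, M8 and D12 lay close together and below every other rat. Group M was lower than Group C by -1.62 (SE 0.44, 3.07-fold, adjusted p = 0.107, or 0.209 with D12 in the fit). Group D was higher than Group M by 1.78 (SE 0.47, adjusted p = 0.1), or by 1.25 (adjusted p = 0.413) with D12. Group D minus Group C was 0.16 (95% interval -0.89 to 1.21).

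Car4, an enzyme anchored on the outer face of the membrane, was 4.41, 3.29, 4.07 and 4.11 in C1 to C4, 3.39, 4.30, 2.71 and 3.65 in M5 to M8, and 4.97, 5.08, 4.74 and 3.69 in D9 to D12. D9 to D11 were the 3 highest rats, above all of Groups C and M, with a mean of 4.93 ± 0.17 (SD, n = 3). Group D was higher than Group M by 1.42 (SE 0.35, adjusted p = 0.0924) and than Group C by 0.96 (SE 0.35, adjusted p = 0.763). With D12 the values were 1.11 (adjusted p = 0.306) and 0.65 (adjusted p = 0.816). Group M minus Group C was -0.46 (95% interval -1.18 to 0.27).

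Aqp8, a water channel of the colonic epithelium, was 1.05, -0.32, 0.81 and 1.15 in C1 to C4, -0.76, 0.73, -2.38 and -0.34 in M5 to M8, and 2.28, 0.97, 0.97 and -1.07 in D9 to D12. M6 lay just below C1, C3 and C4, and C2 with the other rats of Group M. Group D was higher than Group M by 2.10 (SE 0.66, 4.28-fold, adjusted p = 0.128) without D12 and by 1.48 (SE 0.74, adjusted p = 0.452) with it. Group M minus Group C was -1.36 (95% interval -2.72 to 0.003, adjusted p = 0.221).

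Cftr was 1.16, 0.10, 1.33 and 1.04 in C1 to C4, 0.44, 1.45, -0.51 and 0.38 in M5 to M8, and 0.92, 1.39, 0.98 and -0.87 in D9 to D12. M6 was the highest rat and D12 the lowest, and all groups overlapped. No comparison passed the unadjusted threshold, with Group M minus Group C at -0.46 (95% interval -1.33 to 0.40) and Group D minus Group M at 0.65 (95% interval -0.28 to 1.59). With D12 the latter was 0.16 (adjusted p = 0.932). The second probe of Cftr gave -0.48 and 0.49 without D12, and -0.18 for Group D minus Group M with D12.

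The same rats were low in most of these genes. In M7 and M5 all 10 genes were among the 5 lowest of the 12 rats, in M8 9 of them, and in C2 and D12 8 each. In the other 7 rats this held for 1 gene at most. The same counts over all probes are not given here, so the pattern cannot be called particular to these genes. M7 was the lowest rat for 5 genes and D12 for 3, while D10 was the highest for 6.

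B cell markers split the rats in the same way. Of the markers Ms4a1, Cd79a, Cd79b, Cr2 and Pax5, 3 were measured (Ms4a1, Cd79b and Cr2). At the unadjusted threshold 2 of these were lower in Group D than in Group M and 0 differed in the other comparisons. Cd79b, a part of the B cell receptor, was between 0.61 and 2.18 in C2, M5, M7, M8 and D12, and between -3.75 and -1.82 in the other 7 rats. Ms4a1 (CD20), a surface protein of B cells, was between -2.55 and -0.62 in the former and between -8.69 and -5.43 in the latter. The summed signal of the 3 markers, in multiples of the 75th percentile, ranged from 0.127 to 2.66 in Group C, from 0.174 to 3.98 in Group M and from 0.0790 to 0.331 in D9 to D11, and was 5.80 in D12. Ms4a1 was well above background on 8 arrays and Cr2 on 7. For 6 of the 10 transport genes, Slc9a3, Aqp8, Scnn1a, Cftr, Car1 and Car4, each of the 5 rats with high B cell markers lay below each of the other 7. The share of all probes that split the rats in this way is not given here. Without it, neither this count nor that of the epithelial markers below can be called particular to the genes named. Slc9a3 was between -6.94 and -4.13 in the 5 rats and between -2.60 and -0.88 in the 7. Slc26a3, Slc9a5, Scnn1b and Scnn1g overlapped. Of 10 epithelial markers, 3 were also lower in each of the 5 rats than in each of the 7, the transcription factor Cdx2 (1.69 to 2.73 against 3.23 to 4.11), the microvillus protein Vil1 (0.91 to 1.27 against 1.60 to 2.31) and the lectin Lgals4 (6.44 to 6.75 against 6.79 to 7.02), while the other 7 overlapped. The summed signal of the 10 overlapped too, at 287 to 458 in the 5 rats and 328 to 416 in the 7, with M7 the highest of all rats.

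**Figure D4:**
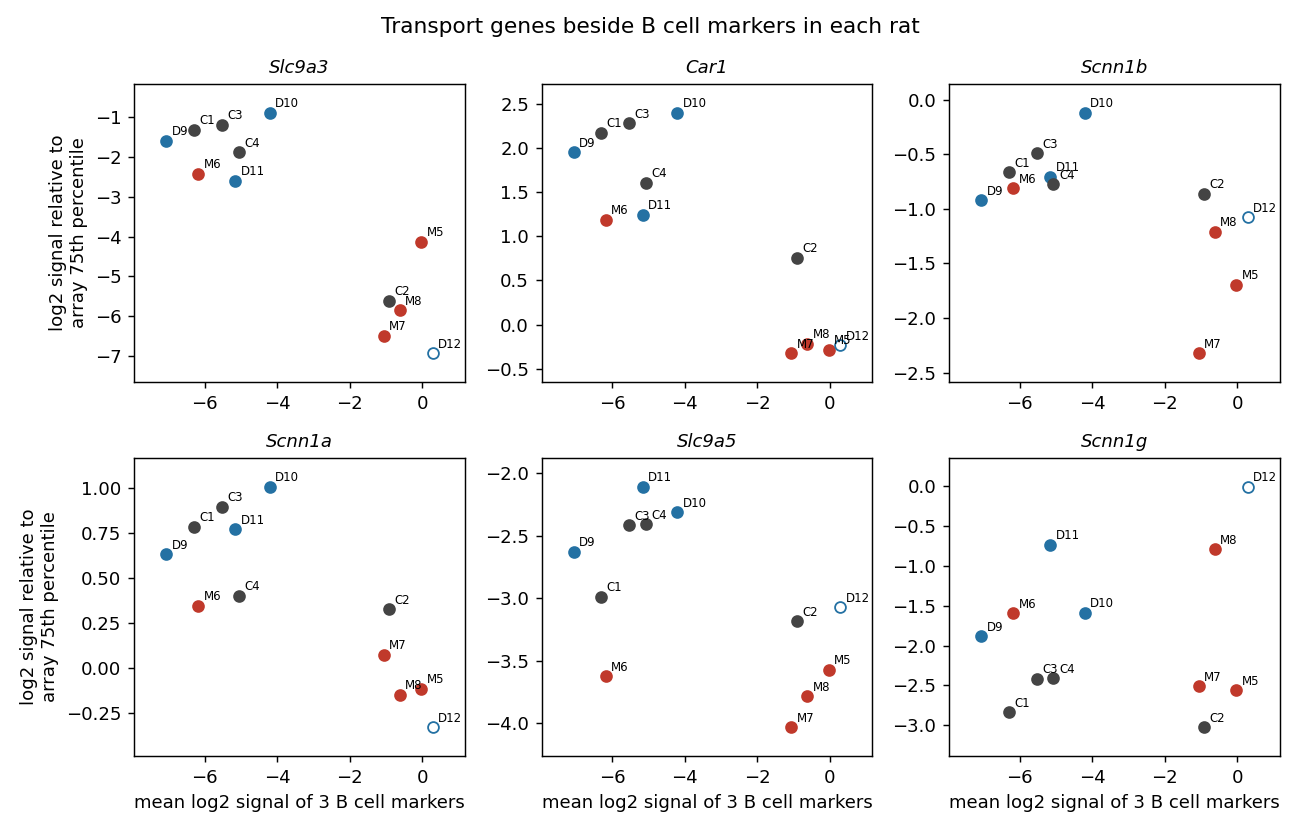
Log2 signal of 6 transport genes against the mean log2 signal of Ms4a1, Cd79b and Cr2 in each of the 12 rats (grey Group C, red Group M, blue Group D, open D12). C2, M5, M7, M8 and D12 stand apart on the right, low in Slc9a3 and Car1, while Slc9a5 is low in all 4 rats of Group M and Scnn1g follows neither.

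With the mean of the 3 B cell markers as a covariate, added after the data were seen, 3 genes passed the unadjusted threshold in Group M against Group C (Slc9a5, Scnn1a and Car1), 4 in Group D against Group M (Slc9a5, Scnn1a, Car1 and Car4) and 2 in Group D against Group C (Scnn1g and Car4), and 0 passed the adjusted one. Calls fell over the whole array as well in the comparisons with Group M, to 13% and 8.8% of all probes at the unadjusted threshold, and were 6.48% in Group D against Group C. Slc9a5 then differed by -0.92 (SE 0.23, adjusted p = 0.249) and 1.28 (SE 0.27, adjusted p = 0.284) in the comparisons with Group M. Slc9a3 moved to -0.81 (adjusted p = 0.729) and 1.04 (adjusted p = 0.842), Cftr to -0.0049 and 0.0079, and Aqp8 to -0.61 (adjusted p = 0.633) and 1.03 (adjusted p = 0.653). Scnn1g in Group D against Group C was 1.22 (SE 0.45, adjusted p = 0.678). The part of B cell content in the differences was not tested further.

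The other marker lists are given by their counts at the unadjusted threshold, which 22.7% (Group M against Group C), 21.6% (Group D against Group M) and 5.98% (Group D against Group C) of all probes passed. Of 10 epithelial genes, 3 were higher in Group M than in Group C at the unadjusted threshold and 2 in Group D than in Group C, with summed signals of 304 to 374 in Group C, 311 to 458 in Group M and 332 to 416 in D9 to D11. None of 6 goblet cell genes passed it in any comparison by limma, and of 6 smooth muscle genes 1 was higher in Group M than in Group C. Among 6 genes of neurons and glia, 3 were higher and 1 lower in Group D than in Group M, with 1 higher in Group M than in Group C and 1 higher in Group D than in Group C. Of 3 fat genes 1 was lower in Group D than in Group M, and its probe was well above background on 0 arrays. Of 5 pancreatic genes, 1 was lower in Group M than in Group C, and 1 was higher and 1 lower in each comparison of Group D. Of 4 genes of the small intestine, 1 was higher and 1 lower in Group D than in Group M. None of 3 squamous or 3 blood genes passed. No gene of any list passed at an adjusted p of 0.05.

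Beyond the 10 genes, 45 others of salt and water transport were measured, in 6 groups by role. None passed the adjusted threshold in any comparison by limma. In Group M against Group C, 19 were lower and 4 higher at the unadjusted threshold, with a median difference of -0.37, beside 12.9% of all probes lower and 9.87% higher. In Group D against Group M, 22 were higher and 2 lower, with a median of 0.49, beside 11.8% of all probes higher and 9.85% lower. In Group D against Group C, 4 were higher and 1 lower, with a median of 0.11, beside 3.16% and 2.83% of all probes. With D12, 8 were lower and 4 higher in Group M than in Group C, 8 higher and 1 lower in Group D than in Group M, and 2 higher and 3 lower in Group D than in Group C, beside 18.5%, 12.1% and 6.78% of all probes in either direction. The counts by role below are at the unadjusted threshold in 11 arrays. In a role of 5 or 6 genes a count of 1 lies near the shares of all probes in the comparisons with Group M. A count of 2 in such a role rests on few genes.

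Chloride secretion runs from uptake of chloride at the blood side to its exit at the lumen, with potassium channels that keep the drive. Of 12 genes of chloride secretion, its potassium channels and guanylin signalling, 7 were lower and 2 higher in Group M than in Group C, and 6 were higher and 1 lower in Group D than in Group M. Slc12a2 (NKCC1), which loads the cell with chloride from the blood side, was -0.70 in Group M against Group C (SE 0.19, adjusted p = 0.109) and 0.78 in Group D against Group M (SE 0.21, adjusted p = 0.1001). Kcnn4, a calcium-activated potassium channel that drives secretion, was -0.50 (SE 0.14, adjusted p = 0.109) and 0.67 (SE 0.15, adjusted p = 0.0835), with no overlap between groups in either. Kcne3, a regulatory subunit of the potassium channel Kcnq1, was higher in both NMS groups than in Group C, by 0.65 in Group D (SE 0.21, adjusted p = 0.694). With D12 the differences of Group D were 0.59 for Slc12a2 (adjusted p = 0.364), 0.59 for Kcnn4 (adjusted p = 0.187) and 0.49 for Kcne3 (adjusted p = 0.726).

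Of 12 exchangers and scaffolds, 5 were lower in Group M than in Group C and 5 higher in Group D than in Group M. Slc9a3r1 (NHERF1), a scaffold that holds Slc9a3 and Cftr at the membrane, was 0.80 higher in Group D than in Group M (SE 0.22, adjusted p = 0.103), and 0.60 with D12 (adjusted p = 0.376). The sulfate transporter Slc26a2 was -0.81 in Group M against Group C (SE 0.25, adjusted p = 0.124), and no longer passed the unadjusted threshold with D12 in the fit. Slc4a4, a sodium bicarbonate cotransporter, was the 1 gene of the 45 to pass the unadjusted threshold as lower in Group D than in Group C in 11 arrays, with a log2 difference of -0.46 (SE 0.12, adjusted p = 0.586). With D12 it was -0.56 (adjusted p = 0.465), and Aqp1 and Prkg2 passed in the same direction. Of the 45, 13 had a lower mean in Group D than in Group C in 11 arrays.

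Of 5 pump genes, 1 was lower in Group M than in Group C and 4 were higher in Group D than in Group M. Atp12a, the colonic proton/potassium pump, had the widest range, with a mean of 3.55 ± 0.50 in Group C (SD, n = 4), 2.44 ± 1.57 in Group M (n = 4) and 5.28 ± 0.19 in D9 to D11 (n = 3). It was 2.84 higher in Group D than in Group M (SE 0.69, adjusted p = 0.0897) and 1.73 higher than in Group C (SE 0.69, adjusted p = 0.801). With D12 these were 2.43 (adjusted p = 0.227) and 1.32 (adjusted p = 0.778), and the latter no longer passed the unadjusted threshold. Of 6 genes that regulate ENaC, 2 were lower in Group M than in Group C and 3 higher in Group D than in Group M. Tsc22d3 (GILZ), which is induced by aldosterone and glucocorticoids, was 1.05 higher in Group D than in Group M (SE 0.29, adjusted p = 0.102), and 0.99 with D12 (adjusted p = 0.202).

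Of 5 aquaporins other than Aqp8, 2 were lower and 1 higher in Group M than in Group C, and 1 was higher and 1 lower in Group D than in Group M. Aqp7, which passes water and glycerol, was -1.35 in Group M against Group C (SE 0.35, adjusted p = 0.105), without overlap. Aqp3, the channel of the basolateral membrane, ran against Aqp8 in Group M. It was 3.51, 3.01, 2.97 and 3.24 in C1 to C4, 3.42, 4.03, 4.78 and 3.82 in M5 to M8, and 4.43, 3.95, 4.12 and 3.60 in D9 to D12. All rats of Group D lay above all rats of Group C, by 0.98 without D12 (SE 0.28, adjusted p = 0.649) and by 0.84 with it (adjusted p = 0.600), and Group M was 0.83 above Group C (SE 0.26, adjusted p = 0.124). Of 5 other carbonic anhydrases, 2 were lower and 1 higher in Group M than in Group C, and 3 were higher in Group D than in Group M. Car2, the main cytosolic form, was -1.73 in Group M against Group C (SE 0.52, adjusted p = 0.117), and Car9 was 0.55 higher in Group D than in Group C (SE 0.15, adjusted p = 0.629). With D12 the difference of Car9 was 0.31 (SE 0.22, adjusted p = 0.841) and did not pass the unadjusted threshold. The 4 genes higher in Group M than in Group C at the unadjusted threshold were Aqp3, Kcne3, the guanylin-like peptide Guca2b and Car13, and the 2 lower in Group D than in Group M were Guca2b and Aqp4. Guca2b, Car13 and Aqp4, with Aqp1 and Prkg2 above, are named outside the rule for named genes, after their values were seen, and the signals of Car13 and Prkg2 stood well above background in 0 of the rats C1 to C4, M5 to M8 and D9 to D11.

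**Figure D5:**
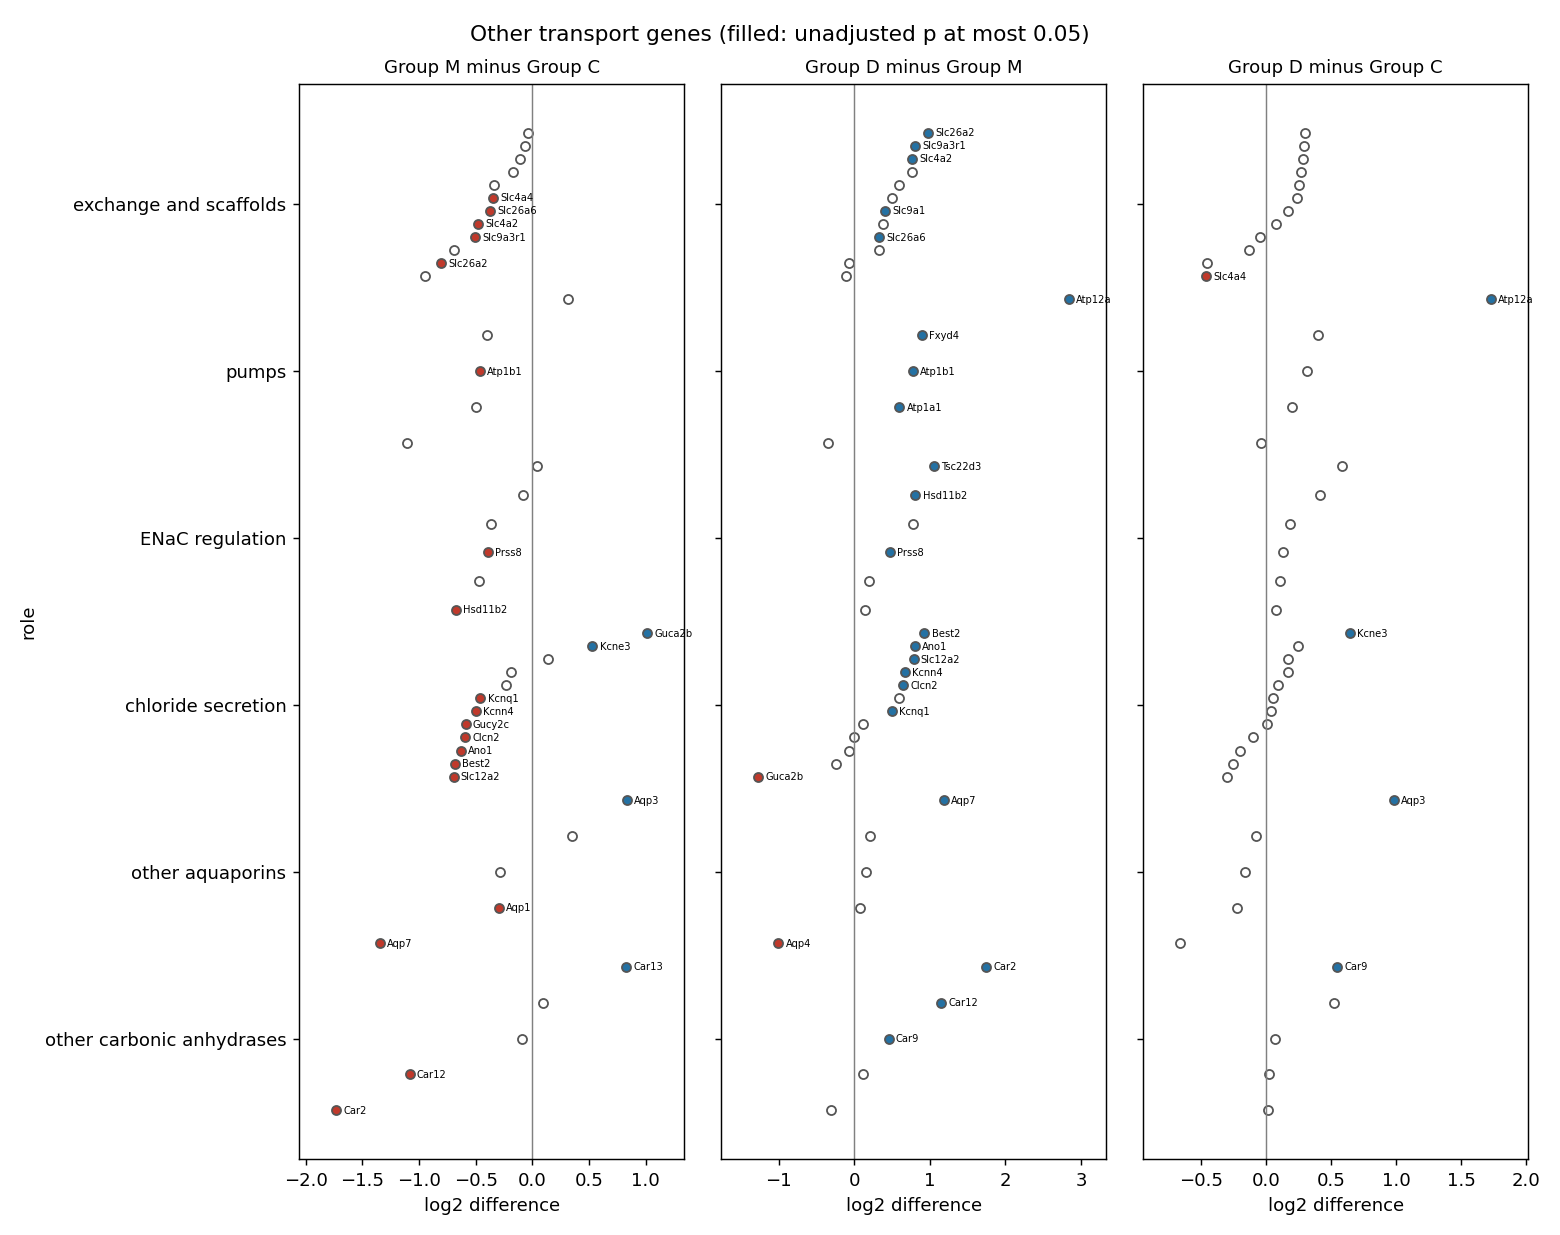
Log2 difference between group means (11 arrays) for 45 other transport genes, by role; filled points had an unadjusted p of at most 0.05 (blue higher, red lower in the first-named group) and carry their names. In Group M minus Group C 19 filled points lie below 0 and 4 above it, and in Group D minus Group M 22 lie above 0 and 2 below it.

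Over the 12 rats, the genes whose levels ran closest to each transport gene were sought among 14178 probes. These had a gene symbol and a signal well above background in all rats. Pearson's r is given as a description across rats that share slides and B cell content. The genes named are among the highest of these probes, and such a choice over 12 rats raises r by itself. For Scnn1b the closest were Rnf213 (r = 0.97), Ttll1 (0.95) and the calcium-binding protein S100g (0.95), and for Scnn1a Tp53bp2 (0.97) and Akap1 (0.96). For Scnn1g they were Taf1a (0.86), Alg11 (0.86) and Drg1 (0.85), the lowest values of the 10 genes. Slc9a3 was followed by Tm7sf3, the fatty acid transporter Slc27a4 and the lipid transfer protein Stard10 (0.98 each), Slc9a5 by Shd (0.96), Limk2 (0.95) and Vamp2 (0.93), and Slc26a3 by Rnase4 (0.96), Sppl2b (0.95) and Rdh13 (0.95). Car1 was followed by Efcab4a (0.98), Tgoln1 (0.98) and the brush border peptidase Dpp4 (0.97), and Car4 by Foxo6, Siat7F and Anks1a (0.94 each). For Aqp8 they were Mxra8 (0.98), Fbxl19 (0.97) and Pnkd (0.97), and for Cftr Golph3l (0.97), Atp5g2 (0.97) and Ndufa13 (0.97).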

How the data were processed

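Arrays were 1-colour Agilent Whole Rat Genome 8x60K slides. The deposited intensity columns of the scanner files came from Feature Extraction 10.5.1.1, with background subtracted by the authors. The authors' deposited table of log2 values matched log2 of the same signals (slope 0.998) and served as an alternative; its normalization is not stated. For each array, log2 of the processed signal minus log2 of its 75th percentile was taken over non-control spots, without outlier spots, and spots of a probe were averaged, leaving 30348 of 30367 probes with a value on every array. Groups were taken from the sample labels. Differences were tested with limma 3.58.1 (R 4.3.3; lmFit and eBayes, 3 groups in 1 model, 11 arrays), and p-values were adjusted by Benjamini and Hochberg over the whole array, with a threshold of 0.05. The fit was tested on simulated data. Replicates are separate rats; their number limits the precision. Named genes were every probe of the 10 transport genes, of the 45 other transport genes the 5 with the lowest p per comparison among probes well above background in all rats of a group, and for each of the 10 genes the 3 genes of highest r; a few others are marked where named. The genes, the lists of other transport genes and of cell markers were chosen with earlier results of these data known. Alternatives were all 12 arrays, normexp background correction (offset 50), quantile and median scaling, the authors' table, outlier spots kept, a filter on dim probes, a replicate block, array weights, pairs of groups, the study's criterion, the mean of a gene's probes and each rat left out. Of the B cell markers and of the genes of highest r, 1 each is not reported here, and the former was left out of every marker value. The dose of VSL#3 differs between the study's methods and the labels and is not given here.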

Additional observations from a re-analysis of the deposited data

Results flagged for a closer look

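In a group of 4 rats, 1 rat was set apart where its gap to the nearest other rat took up more than 0.829 of the range of the group. Of 30 groups tested (10 genes in Groups C, M and D, D12 included) 2 met this, and chance gives about 1 in 20. Slc9a3 in rat C2 was -5.61, while C1, C3 and C4 lay between -1.88 and -1.18 (ratio 0.841). Car1 in rat M6 was 1.19, while M5, M7 and M8 lay between -0.33 and -0.22 (ratio 0.929). Beside these, the mean log2 level of the 3 B cell markers was -0.91 in C2, against -6.30 to -5.07 in the rest of Group C, and -6.17 in M6, against -1.06 to -0.0275 in the rest of Group M. Their part in the values was not tested.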

How the results depend on the processing

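The count of the 10 genes at an adjusted p of 0.05 was 0 in Group M against Group C and 1 in Group D against Group M. With array weights it was 7 and 8, where 28% and 22.6% of all probes passed. These weights rested mostly on M8 within Group M, at 4.65, against 1.04 in M5, 0.368 in M6 and 0.523 in M7. With one rat left out the count ranged from 0 to 4 and from 0 to 7, the higher values without M6, where 16.2% and 15% of all probes passed. The 1 call in Group D against Group M, Slc9a5, was lost (count 0) with all 12 arrays, with the replicate block, with the 2 compared groups alone and with the B cell covariate in 11 or 12 arrays. At the unadjusted threshold the 4 genes of Group M against Group C became 10 with array weights, 2 by the criterion of the study's methods, 2 with the B cell covariate in 12 arrays and 3 to 8 with one rat left out. The 8 of Group D against Group M became 4 with 12 arrays, 4 with the B cell covariate in 11 arrays and 3 in 12, 3 by that criterion and 5 to 9 with one rat left out. The 2 of Group D against Group C became 1 with 12 arrays, 0 by that criterion and 1 to 3 with one rat left out. The cause was not tested. Other alternatives, normexp, quantile and median scaling, the authors' table, outlier spots kept, the filter on dim probes and the mean of a gene's probes, kept these counts within 1.5 times. With array weights 10 and 9 genes passed the unadjusted threshold in Group M against Group C and in Group D against Group M, where 40% and 36% of all probes did.

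Signs turned as follows. In Group D against Group C, with 12 arrays, Slc9a3 was -0.50, Scnn1a -0.0825, Scnn1b -0.0064, Cftr -0.30 and Car1 -0.36. With one rat left out, Slc9a3 ranged from -0.23 (without C2) to 1.26, Cftr from -0.0768 (without C2) to 0.33, Scnn1b from -0.11 (without D10) to 0.29 and Car1 from -0.15 (without C2, and -0.11 without D10) to 0.47. With the B cell covariate Car1 was -0.0751, and with it in 12 arrays Slc9a3 was -0.22, Scnn1a -0.0372, Cftr -0.20 and Car1 -0.25. Cftr with the covariate in 12 arrays was 0.13 in Group M against Group C and -0.33 in Group D against Group M. With 12 arrays the second probe of Cftr was -0.18 in Group D against Group M and -0.66 in Group D against Group C. That of Slc9a3 was -0.36 in Group D against Group C. Scnn1g in Group D against Group M was -0.14 with array weights. Its within-rat difference from Scnn1a in that comparison was 0.33 with 12 arrays and from -0.65 to 0.12 with one rat left out, the higher without M8, and from Scnn1b 0.0081 with 12 arrays. Of the differences of single genes, 664 kept their direction and side of the threshold under an alternative, 24 newly passed it and 14 lost it.

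Same-numbered rats of different groups shared an array column. Their deviations from the group means correlated between -0.559 and 0.384, above 0.1 in 3 of 12 pairs. Rats with different numbers correlated between -0.657 and 0.652, above 0.1 in 17 of 36 pairs. The numbers were not taken as pairs. The value of 0.652 was that of C2 and D12, both with high B cell markers, so an effect of the column cannot be read from these values. With the replicate block 5, 7 and 2 genes passed the unadjusted threshold in Group M against Group C, Group D against Group M and Group D against Group C, and 0 the adjusted one.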
